A study of Mus musculus with 2 samples.

Results

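The G1 cyclins and the inhibitors of their kinases were examined in NIH3T3 cells, an established immortal line of mouse embryo fibroblasts. The 10 genes, 5 cyclins and 5 inhibitors, were taken by name from a table of 22838 genes: the D-type cyclins Ccnd1, Ccnd2 and Ccnd3, the E-type cyclins Ccne1 and Ccne2, the CIP/KIP inhibitors Cdkn1a and Cdkn1b, and the INK4 inhibitors Cdkn2a, Cdkn2b and Cdkn2c. Each had 1 entry. Messenger RNA was sequenced in 2 groups of 1 library each: untreated cells, and cells given 100 µM ALA for 16 h. ALA is not spelled out in the labels; from the heme theme of the series title it is read here as aminolevulinic acid, a precursor of heme. Both groups are the same line, with no genetic change named. The values are FPKM, in which fragment counts are divided by transcript length and library size, so levels of different genes can be set side by side per length.

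D-type cyclins bind CDK4 and CDK6, and E-type cyclins bind CDK2; both kinds of kinase phosphorylate the retinoblastoma protein and so release E2F factors, which switch on genes for DNA replication. INK4 proteins bind CDK4 and CDK6 and keep D-type cyclins from forming active complexes, while the CIP/KIP proteins p21 and p27 bind whole cyclin-kinase complexes and are best known for blocking CDK2. The Cdkn2a gene encodes 2 unrelated proteins from separate first exons, the INK4 protein p16 and the p53-stabilising protein ARF. NIH3T3 is known as a line that lacks the INK4a/ARF products, a common route by which mouse fibroblasts escape senescence.

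With 1 library per group no difference had a replicate check, so no p-value is given. Differences are log2 ratios, log2((ALA FPKM + 1)/(untreated FPKM + 1)); the added 1 shrinks the ratios of weakly expressed genes. A fold printed for a single gene is the plain ratio of FPKM values, while genes counted as at least 1.5-fold or 2-fold apart are counted by the log2 ratio with the added 1. Depth, read from the steps between low values, was about 22200000 reads for the untreated library and 30300000 for the ALA library. The 95% intervals given below are approximate, rest on that estimate and cover counting error only, not variation between cultures. All 9 fibroblast markers, such as S100a4 at 4976 FPKM untreated and 4717 with ALA, had at least 1 FPKM in both libraries. Of the epithelial, endothelial, muscle and adipocyte markers only Des, at 1.95 and 1.12 FPKM, and Lpl, at 51.3 and 52.3 FPKM, did. Of 4 macrophage and blood markers 2 did, and their summed level was 29.7 FPKM untreated and 16.5 FPKM with ALA; the part of any other cell type in the results was not tested. In bulk RNA a change in the share of cells in G1 and a change of RNA per cell cannot be told apart.

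Because Cdkn2a and Cdkn2b are neighbouring paralogs, reads from one could in principle be placed on the other. No stretch of 41 bases, the read length, of the longest GENCODE vM21 transcript of either gene occurs in an annotated transcript of another gene.

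Cdkn2a was listed at 0 FPKM in both libraries, and so was Cdkn2b, which encodes p15. Of all genes in the table, 34.8% were listed at 0 in both. At the estimated depths 3 reads would have given Cdkn2a 0.151 FPKM untreated and 0.111 FPKM with ALA, and Cdkn2b 0.0972 and 0.0712 FPKM, so higher levels than these would have been seen if reads were assigned normally. A value of 0 in such a table can also be a failed estimate. The deposited status of Cdkn2a and of Cdkn2b was OK in both libraries. None of 79 cytosolic ribosomal protein genes, which every cell uses, was at 0, but Rpl26 was listed at 0.000796 FPKM untreated against 30.4 with ALA. E2f6, an E2F family repressor, was at 0 and 0.013 FPKM.

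The nearest transcribed genes lay close to the pair on the Cdkn2a side and far from it on the Cdkn2b side (see the plot of FPKM by distance from the locus). Mtap, which encodes the methylthioadenosine phosphorylase of the methionine salvage pathway, ends 93.4 kb before Cdkn2a and had 304 FPKM untreated and 282 FPKM with ALA. Mtap ranked 232 from the top of the 22838 genes in the untreated library. Beyond Cdkn2b, the 3 genes before Elavl2 (Dmrta1, Zfp352 and Gm12633) were listed at 0 in both libraries. Elavl2, which encodes an RNA-binding protein best known from neurons, starts 1940 kb from Cdkn2b and had 1.98 FPKM untreated and 1.74 FPKM with ALA.

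Among the 44 table genes within 2000 kb of the pair, 32 were listed at 0 in both libraries and 6 reached 1 FPKM in at least 1 of them. Of those at 0, 16 belonged to the 17 genes named as interferons, which fibroblasts mostly do not transcribe unless induced. Ifnz, the other interferon gene, had 0.478 FPKM untreated and 0.041 FPKM with ALA, and shares 80.9% of its 41-base stretches with other genes. Besides Mtap and Elavl2 the genes that reached 1 FPKM were Mllt3 (41.1 untreated and 36.3 FPKM with ALA), Klhl9 (59.6 and 50.9 FPKM), Gm12603 (16.3 and 20.1 FPKM) and Focad. Focad, which encodes focadhesin, had 4.67 FPKM untreated and 10.99 FPKM with ALA. It was the only one of the 6 at least 2-fold apart, with a log2 ratio of 1.08. Among all genes with a mean over both libraries of at least 1 FPKM, 3.5% were at least 2-fold apart. Other genes share 10.8% of the 41-base stretches of Focad, most of them Hacd4, listed as Ptplad2 at 0.029 FPKM untreated and 0 with ALA. RNA alone does not tell a deleted gene from a silent one, so the state of the DNA cannot be read from these values.

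**Figure D1:**
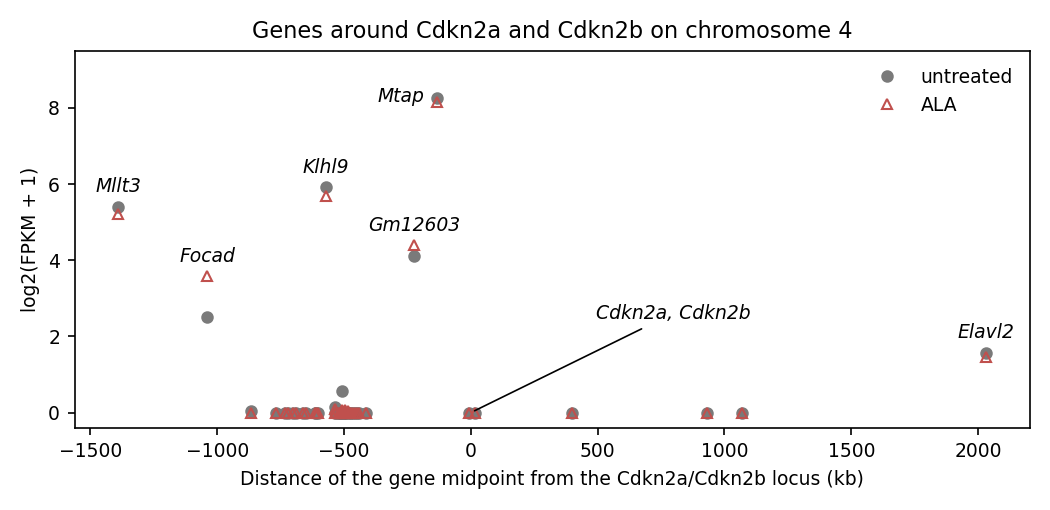
Level of each of the 44 table genes within 2000 kb of Cdkn2a and Cdkn2b, as log2(FPKM + 1), against the distance of the gene's midpoint from the locus in kb, for the untreated (circles) and ALA (triangles) library. Cdkn2a and Cdkn2b lie at 0 while Mtap, 93.4 kb away, stands at 304 and 282 FPKM; the dense row at 0 to the left is the interferon cluster.

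The upstream sequence of Cdkn2a is shown because its first exon for ARF is a classical E2F target. These bases precede the distal of the Cdkn2a start sites in the RefSeq promoter table (GRCm38.p6, minus strand, chr4:89294661-89294768), with the E2F word TTTCCCGC in capitals.
Cdkn2a upstream: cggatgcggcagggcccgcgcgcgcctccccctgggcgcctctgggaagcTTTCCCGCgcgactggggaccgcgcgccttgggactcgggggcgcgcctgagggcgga
TTTCCCGC was found on either strand in 1.07% of the 32851 promoters of that table. Of the 10 genes 7 matched the table, with 11 promoters of 250 bases before and 50 after the start. The other E2F words searched, TTTGGCGC (0.514% of all promoters) and TTTGGCGG (0.56%), were in none of these 11. Ccnd1, Ccnd2 and Ccne2 had no entry.

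Cdkn2c, which encodes p18, was the transcribed INK4 gene of the 3. Its level was 70.9 FPKM in untreated cells and 91.4 FPKM with ALA, from about 3891 and 6846 reads. The ALA library was 1.29-fold higher, a log2 ratio of 0.36 (95% counting interval 0.31 to 0.42). Among all genes with a mean over both libraries of at least 1 FPKM, 29.7% were at least as far apart as Cdkn2c. The gene lies on chromosome 4 at 109660876 to 109667189, outside the window above, and shares no 41-base stretch with another gene. With Cdkn2a and Cdkn2b at 0, Cdkn2c made up 100% of the summed FPKM of the 3 INK4 genes. The INK4 gene Cdkn2d, which encodes p19INK4d and was not among the 10, differed in the other direction. It had 25.3 FPKM untreated and 16.8 FPKM with ALA, for a log2 ratio of -0.57.

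Both CIP/KIP genes were lower in the ALA library. Cdkn1a, which encodes p21, the p53-induced inhibitor, was the highest of the 10 genes, with 214 FPKM untreated and 166 FPKM with ALA. It was 1.29-fold lower with ALA, a log2 ratio of -0.37 (interval -0.41 to -0.33). Of the 41-base stretches of Cdkn1a, 10.9% are shared with the annotated gene AC167363.2. Cdkn1b, which encodes p27, an inhibitor that accumulates in resting cells, had 73.3 FPKM untreated and 53.97 FPKM with ALA. It was 1.36-fold lower with ALA, a log2 ratio of -0.43 (interval -0.48 to -0.39). Cdkn1a was 2.92 times as abundant as Cdkn1b in the untreated library and 3.07 times with ALA, so their ratio was similar in both. Differences of this size were common: 28.6% of measured genes were at least as far apart as Cdkn1a and 22.8% at least as far as Cdkn1b. A gene is called measured when its mean over both libraries was at least 1 FPKM. The relative Cdkn1c, which encodes p57, was listed at 0 in both libraries.

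Cdkn1a is a textbook p53 target, so its upstream sequence was searched for a pair of p53 half-site cores, written CATGNNNNNNCATG; this word was chosen after the sequence had been seen. The bases before the distal Cdkn1a start site in the RefSeq table (GRCm38.p6, plus strand, chr17:29090881-29090978) are shown with the match in capitals.
Cdkn1a upstream: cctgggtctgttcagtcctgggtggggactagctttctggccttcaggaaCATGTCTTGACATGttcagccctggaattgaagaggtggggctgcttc
The word was in 0.712% of all promoters of the table and in no promoter of the other 6 matched genes. Other genes of the p53 axis went both ways. Of 14 measured genes of that list 10 were higher and 4 lower with ALA (11 and 3 with equal FPKM totals). The 10 include Trp53 and the Polycomb genes Bmi1 and Ezh2, so they are not a count of p53 targets. The median log2 ratio of the 14 was 0.08 against -0.02 over all 10929 measured genes. Among all measured genes 5222 were higher and 5707 lower (6218 and 4711 with equal FPKM totals). Bbc3, which encodes the death protein PUMA, had 8.54 FPKM untreated and 16.5 FPKM with ALA (log2 ratio 0.87). Zmat3 had 16.4 and 22.5 FPKM (0.43). Gadd45a, a growth-arrest gene, had 49.9 and 36.3 FPKM (-0.45), and 19.1% of its exon bases overlap another gene. Trp53 itself had 69.8 FPKM untreated and 92.3 FPKM with ALA (0.40), and Mdm2, its ubiquitin ligase, had 50.8 and 53.6 FPKM (0.08). The list also holds repressors of Cdkn2a: the Polycomb genes Bmi1, at 34.3 and 36.5 FPKM, and Ezh2, at 18.7 and 27.8 FPKM (0.55), were transcribed. Cbx7 was at 0.0517 and 0.148 FPKM and Tbx2 was listed at 0 in both.

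**Figure D2:**
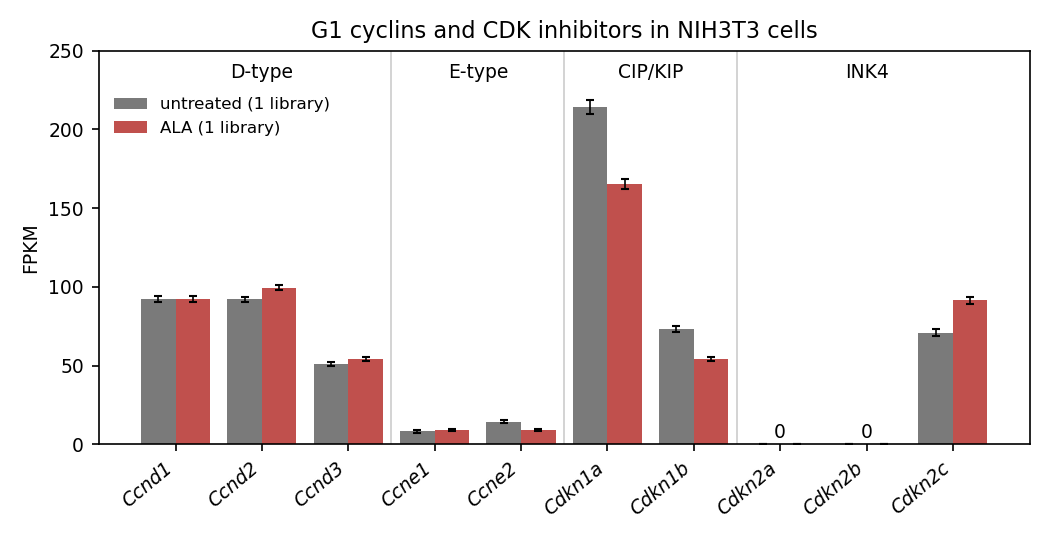
FPKM of the 10 genes in the untreated (grey) and ALA (red) library, 1 library each; error bars are approximate 95% counting intervals only. Cdkn1a is highest at 214 and 166 FPKM, the D-type cyclins stand at similar heights in both libraries, and Cdkn2a and Cdkn2b are listed at 0.

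The D-type cyclins were abundant and at similar levels in both libraries. Ccnd1, the cyclin most closely tied to growth factor signalling, had 92.2 FPKM untreated and 92.3 FPKM with ALA, for a log2 ratio of 0.00 (interval -0.04 to 0.04). Ccnd2 had 92.1 and 99.5 FPKM, a log2 ratio of 0.11 (interval 0.08 to 0.14). Ccnd3 had 51.1 and 54.3 FPKM, a log2 ratio of 0.09 (interval 0.03 to 0.14). On the deposited scale the 3 cyclins were thus at most 1.08-fold apart between the libraries. With the libraries scaled to equal FPKM totals their log2 ratios were larger, 0.08 for Ccnd1, 0.19 for Ccnd2 and 0.17 for Ccnd3. Of the measured genes 99.4% were at least as far apart as Ccnd1, 72.7% as Ccnd2 and 78.02% as Ccnd3.

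Ccnd1 and Ccnd2 were matched in the untreated cells, and together with Ccnd3 they summed to 235 FPKM untreated and 246 FPKM with ALA. Of that sum Ccnd1 made up 39.2% and 37.5%, Ccnd2 39.1% and 40.4%, and Ccnd3 21.7% and 22.1%. The summed CIP/KIP level was 1.22 times the summed D-type cyclin level in the untreated library and 0.892 times in the ALA library. Of the 41-base stretches of Ccnd1, 27.6% are shared with its neighbour LTO1, listed as Oraov1 in the table at 8.21 and 10.5 FPKM. Adding Oraov1 gave Ccnd1 a log2 ratio of 0.03. Ccnd2 and Ccnd3 share 5.31% and 3.8% with other genes.

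The E-type cyclins were the lowest of the transcribed members, the summed D-type level being 10.5 times theirs in the untreated library and 13.7 times with ALA. Ccne1 had 8.22 FPKM untreated and 9.19 FPKM with ALA. Its log2 ratio was 0.14, with an interval of -0.03 to 0.31 that includes 0, so no difference was detectable at this depth. Ccne2 had 14.2 FPKM untreated and 8.83 FPKM with ALA, from about 948 and 804 reads. It was 1.61-fold lower with ALA, a log2 ratio of -0.63 (interval -0.75 to -0.51). Ccne1 was thus at 0.579 of the Ccne2 level in untreated cells and at 1.04 times it with ALA.

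Ccne2 was the one gene of the 10 at least 1.5-fold apart, and none was at least 2-fold apart. That call was lost with equal FPKM totals, where its log2 ratio was -0.56, and with 5 in place of 1 added to each FPKM, where it was -0.47. On the deposited scale this was 1 of 8 measured members at 1.5-fold, where 13.1% of all measured genes were that far apart (5.9% higher and 7.16% lower with ALA); at 2-fold it was 3.5% of all measured genes (1.49% higher and 2.01% lower). The median log2 ratio of the 8 was 0.05. The share of members past 1.5-fold was therefore near that of all genes on the deposited scale.

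The value of Ccne2 may depend on how reads were split with a second gene, which was not tested. On GRCm38 Ccne2 lies on the plus strand of chromosome 4 at 11191351 to 11204779, and 17.4% of its exon bases overlap Ints8, which encodes a subunit of the Integrator complex. The deposited table gives Ccne2 and Ints8 one joint span, 11191351 to 11254259, and no strand setting is given in the sources used here. Ints8 had 22.5 FPKM untreated and 28.2 FPKM with ALA, for a log2 ratio of 0.32, opposite in direction to Ccne2. Their sum was 36.7 FPKM untreated and 37.1 FPKM with ALA, for a log2 ratio of 0.02. Summed as approximate reads scaled to depth, which was added after these values were seen, the log2 ratio was 0.04. Ints8 was the larger part of both sums, so they do not give the direction of Ccne2 alone. Ccnd2 and Ccnd3 also share a span with another entry, 9330179D12Rik at 0 and 0.886 FPKM and Bysl at 6.96 and 10.7 FPKM, but both are low beside the cyclins.

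**Figure D3:**
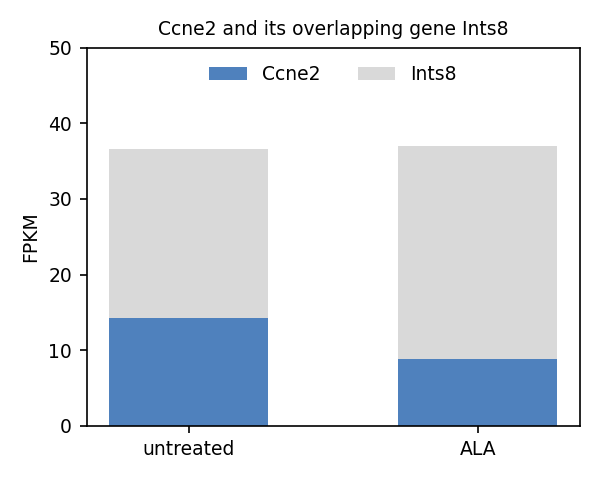
Stacked FPKM of Ccne2 (blue) and of Ints8 (grey), whose exons overlap it, in the untreated and ALA library, 1 library each and no error bars. The blue part is smaller with ALA, 8.83 against 14.2 FPKM, while the whole column stays at 36.7 and 37.1 FPKM.

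By level the untreated order was Cdkn1a, Ccnd1, Ccnd2, Cdkn1b, Cdkn2c, Ccnd3, Ccne2 and Ccne1. Ccnd1 and Ccnd2 overlapped in their counting intervals, 90.1 to 94.3 and 90.5 to 93.7 FPKM, and so did Cdkn1b (71.6 to 75.0) and Cdkn2c (68.7 to 73.2). With ALA the order was Cdkn1a, Ccnd2, Ccnd1, Cdkn2c, Ccnd3, Cdkn1b, Ccne1 and Ccne2. There Ccnd1 overlapped Cdkn2c, Ccnd3 overlapped Cdkn1b, and Ccne1 overlapped Ccne2. Within the counting intervals Cdkn1b went from level with Cdkn2c to level with Ccnd3, which is the main change of rank between the libraries.

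The kinases that these proteins act on differed little. Cdk4 had 192 FPKM untreated and 213 FPKM with ALA (log2 ratio 0.14), and shares 30.1% of its 41-base stretches with other genes, mostly Tspan31. Cdk6 had 29.3 and 26.2 FPKM (-0.16), so Cdk4 was 6.56 times as abundant as Cdk6 in the untreated library and 8.12 times with ALA. Cdk2 had 17.4 and 17.7 FPKM (0.02). Cdc25a, the phosphatase that activates CDK2, had 5.97 and 8.38 FPKM (0.43). Of the 7 measured genes in the list of kinases and their activating enzymes none was 1.5-fold apart, and the median log2 ratio was 0.02. Of all measured genes 13.1% were at least 1.5-fold apart. Cdkn3, a phosphatase gene with an inhibitor's name, had 19.1 and 26.3 FPKM (0.44).

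Downstream, the pocket protein genes were mixed and most of the listed E2F-driven genes were higher with ALA. Rb1, the retinoblastoma gene, had 12.4 FPKM untreated and 10.8 FPKM with ALA (-0.19), while its relative Rbl2 had 5.36 and 7.12 FPKM (0.35). Other genes overlap 14.9% of the exon bases of Rb1 and 21.0% of those of Rbl2. E2f1 had 18.9 and 15.2 FPKM (-0.29) and E2f2 0.96 and 1.70 FPKM (0.46). E2f5, which encodes a repressor E2F, had 12.9 and 5.18 FPKM (-1.17). It was the only one of the 12 measured genes of its list at least 1.5-fold apart by the log2 ratio with 1 added. By that ratio 13.1% of all measured genes were at least 1.5-fold apart. By plain FPKM E2f2 was also past 1.5-fold, 1.77-fold higher. E2f5 has a joint span with 1810022K09Rik, which overlaps 1.46% of its exon bases. Of 20 measured E2F-driven genes 18 were higher and 2 lower with ALA, the same counts with equal FPKM totals. Their median log2 ratio was 0.23, with none at 1.5-fold, where 13.1% of all measured genes were. Among all measured genes 47.8% were higher (56.9% with equal FPKM totals). The list is a selection. It does not hold Ccne1 (0.14), Ccne2 (-0.63), E2f1 (-0.29) or Skp2 (-0.10), which are placed in other groups here. The helicase subunit gene Mcm5 had 38.8 and 54.1 FPKM (0.47) and Uhrf1, which maintains DNA methylation, 39.3 and 51.02 FPKM (0.37). Mcm7 (0.37) and Uhrf1 share 40.01% and 23.2% of their 41-base stretches with other genes. From the same list Chaf1a shares 48.3% and Pcna 34.6%. Cdc6, the licensing factor, was lower at 6.64 and 4.96 FPKM (-0.36).

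Of the 15 measured genes for ligases and adaptors that degrade these proteins 12 were higher and 3 lower with ALA, the same counts under both other scalings, where 47.8% of all measured genes were higher (56.9% with equal FPKM totals). The differences were small, with a median log2 ratio of 0.10 and none at 1.5-fold, where 13.1% of all measured genes were. Skp2, the adaptor that marks p27 for degradation, had 12.9 FPKM untreated and 11.998 FPKM with ALA (-0.10), and its partner Cks1b 75.6 and 81.7 FPKM (0.11). Fbxw7, the adaptor for cyclin E, had 8.66 and 8.85 FPKM (0.03). Dtl, the adaptor that directs p21 and the licensing factor CDT1 to degradation in S phase, had 14.7 and 21.1 FPKM (0.49).

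**Figure D4:**
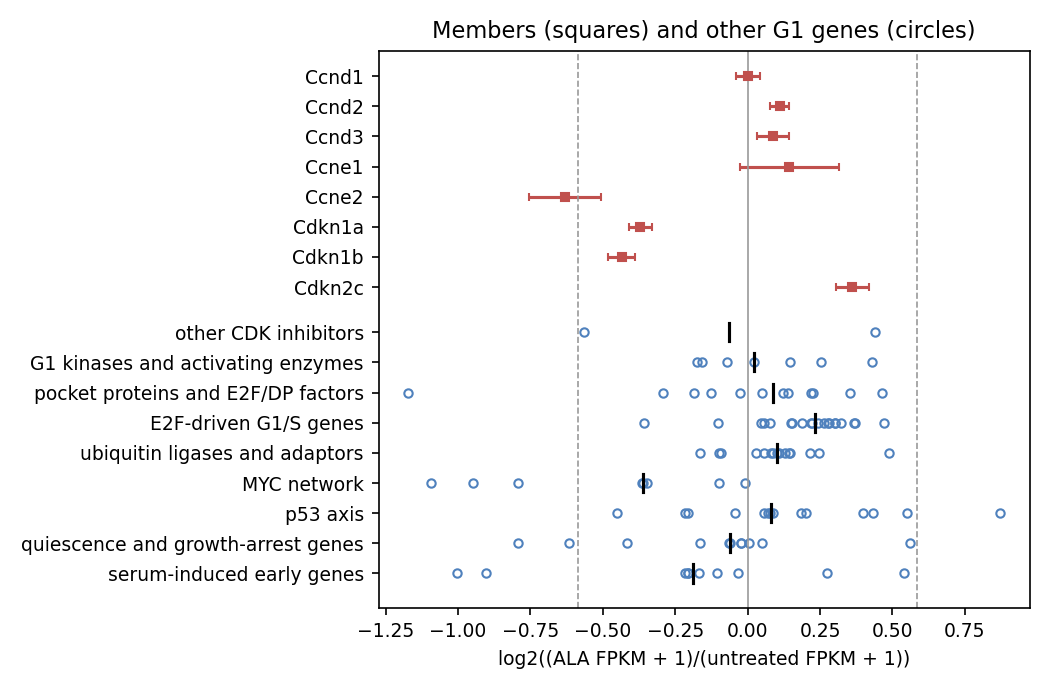
The log2((ALA FPKM + 1)/(untreated FPKM + 1)) of the 8 measured members (squares, bars are approximate 95% counting intervals) and of the measured genes of 9 other lists (circles, black ticks are list medians), with dashed lines at 1.5-fold. Ccne2 is the only square beyond a dashed line, and the 8 measured MYC network genes lie below 0, of which Mxd3 is above 0 under both other scalings of the libraries.

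The MYC network, which acts on cyclin D2 and on the inhibitors, had lower values with ALA in 8 of 8 measured genes, against 5707 of all 10929. The median log2 ratio of the 8 was -0.36; Mxd3, at -0.01, turned to 0.07 with equal FPKM totals and to 0.01 with the median ratio set to 1. Myc had 32.5 FPKM untreated and 25.1 FPKM with ALA (-0.36). The 3 genes at least 1.5-fold lower, where 7.16% of all measured genes were, encode antagonists of MYC that act with MAX: Mxd4 had 50.4 and 23.1 FPKM (-1.09), Mxd1 3.88 and 1.53 FPKM (-0.95) and Mxi1 35.4 and 20.0 FPKM (-0.79).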

How the data were processed

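The authors deposited FPKM values per gene, 1 per library, in a table with the layout of Cufflinks per the file headers. The submitters' processing notes name FastQC 0.11.5, TopHat2 2.1.1, Cufflinks 2.2.1 and build mm10. Annotation, strand setting and library scaling: not given in the sources used here. Deposited interval bounds were equal in 100% of rows and carry no error. With FPKM and 1 library per group, neither count models nor other tests were run. Log2 ratios used a pseudocount of 1, and the 10929 genes whose 2-library mean reached 1 FPKM were called measured. Depth was fitted to the steps between low values of 2176 single-transcript genes over 1500 bp, with near-equal fits from 21700000 to 22800000 reads (untreated) and 26600000 to 32900000 (ALA); approximate reads are FPKM times longest transcript length times depth. Gene models came from GENCODE vM21 (GRCm38, the assembly mm10 names), in which 94.4% of table genes matched by name and position. The procedure was tested on simulated Poisson counts made with the same transcript lengths, which does not check the depth estimates for the deposited values. The mean cosine of the depth fits, which exact steps would put at 1, was 0.243 untreated and 0.240 with ALA. Python 3.11.15, numpy 2.4.6, pandas 2.3.3 and scipy 1.17.1 were used. Members, lists and thresholds were chosen with earlier results of these data known. Named genes were all members, up to 4 genes with the largest absolute log2 ratio of each other list, and a few fixed kinases and inhibitors; others were named after their values were seen. Protein sequences were not used here.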

Additional observations from a re-analysis of the deposited data

How the results depend on the processing

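No paired analysis was possible because each group has 1 library, and no library could be left out. Pseudocounts of 0.1 and 5, equal FPKM totals and a median ratio of 1 kept the sign of every measured member's log2 ratio. Ccne2 summed with Ints8 had a log2 ratio of 0.0151 in FPKM and 0.0433 in reads scaled to depth. Ints8 was the larger part of these sums, so they do not give the sign of Ccne2 alone. Medians of 2 short lists, other CDK inhibitors (-0.06) and quiescence genes (-0.06), became 0.01 and 0.02 with equal totals. The log2 ratios of the D-type cyclins rose with equal totals to between 0.08 and 0.19. The 1.5-fold call of Ccne2 was lost with a pseudocount of 5 and with equal FPKM totals, each leaving 0 members at 1.5-fold. Equal totals raise the ALA values by 0.08 on the log2 scale and turn the split of all genes at 1.5-fold from 645 higher and 782 lower to 854 higher and 643 lower. Over the scalings and pseudocounts Cdkn1a stayed between -0.37 and -0.29, Cdkn1b between -0.44 and -0.36 and Cdkn2c between 0.34 and 0.44. Over all measured genes the 2-fold calls, 163 higher and 220 lower, became 302 and 389 with 0.1 added, 31 and 42 with 5 added, and 67 and 104 when the mean had to reach 5 FPKM. The 1.5-fold calls became 194 and 299 with 5 added, and 349 and 447 when the mean had to reach 5 FPKM. Depth limits Ccne1 most, with about 365 and 557 reads.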

Other observations

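Genes that mark growth state around the G1 cyclins went both ways. Of 11 measured quiescence and growth-arrest genes 3 were higher and 8 lower with ALA, with a median log2 ratio of -0.06, which became 0.02 with equal FPKM totals, when 7 were higher and 4 lower. Gas1, a growth-arrest gene of fibroblasts, had 208 FPKM untreated and 209 FPKM with ALA. Ccng2, which encodes an unconventional cyclin of resting cells, had 46.7 and 34.7 FPKM (-0.42), and Txnip 119 and 77.4 FPKM (-0.62), with 19.4% of its exon bases inside other genes. Hes1, a repressor that guards quiescence, had 4.996 and 7.84 FPKM (0.56).

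Serum-induced early genes, which precede cyclin D1 after growth factor stimulation, were lower in 8 of 10 measured cases (7 with equal FPKM totals), with a median log2 ratio of -0.19. Of all 10929 measured genes 5707 were lower (4711 with equal FPKM totals), with a median of -0.02. Egr1 had 25.7 FPKM untreated and 12.3 FPKM with ALA, 2.09-fold lower, and Fosl1, with 57.2% of its exon sequence inside other genes, 18.3 and 9.35 FPKM (-0.90). Jund was higher, at 49.5 and 72.4 FPKM (0.54), with 49.1% of its 41-base stretches shared. Ccnd1 was at 92.2 and 92.3 FPKM.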
